A study of Mus musculus with 18 samples.

Results

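Chemokines are small secreted proteins, and their receptors sit on the leukocytes, endothelial cells and vascular wall cells that respond to them. The genes described here are the protein-coding mouse genes whose symbols begin with Ccl, Cxcl or Xcl, together with Cx3cl1, the Ccr and Cxcr receptors, Cx3cr1, Xcr1 and the atypical receptors Ackr1 to Ackr4. They numbered 58 of the 54281 genes in the deposited table, comprising 36 ligands, 18 signalling receptors and 4 atypical receptors. Ccl27b was not analysed here.

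RNA was measured in the descending aorta of male C57BL/6 mice in 3 groups of 6. HGPS mice carried the LMNAG609G genotype, a knock-in that makes progerin from the endogenous lamin A gene in every cell type that uses it, were homozygous for it by the study's description, and were 64 to 75 days old. The 2-mo WT controls were wild type mice of 62 days, except replicate 6 at 95 days, and the 24-mo WT mice were wild type at 609 to 762 days. Each library came from a vessel cleaned of surrounding tissue that still held intima, media and adventitia. The labels give neither litter nor sequencing batch, so litter or batch and group cannot be told apart.

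A chemokine is held on the surface of cells or matrix near its source and guides leukocytes that carry the matching receptor, which signals through a Gi protein. One set of chemokines is switched on by inflammatory signals and brings monocytes, neutrophils or effector T cells into tissue, while another set is made constantly and directs resident leukocytes and lymphocyte traffic. Atypical receptors bind chemokines without Gi signalling and remove or present them. In arteries the Ccl2 and Ccr2 pair is best known for monocyte entry into the wall.

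Libraries held between 12413229 and 30844775 counts, with group medians of 22752394 in HGPS, 18031579 in 2-mo WT and 17964166 in 24-mo WT. Levels are given as CPM, the gene's share of the library's counts on the usual CPM scale after a factor for library composition, and each set of 3 CPM values is the lowest, the median and the highest of 6 mice. Differences are log2 fold changes (log2 FC) from edgeR's quasi-likelihood test over 15210 genes and all 18 mice, given ± SE. A gene was called when its Benjamini-Hochberg adjusted p was under 0.05. The test returns no SE, so it was derived as the absolute log2 FC over the square root of the F statistic. Such an SE is unsteady where the log2 FC is near 0. The p-values measure the spread between these animals, and a litter or batch shared within a group would not show in them. In whole vessel RNA, fewer cells of a type and less RNA per cell cannot be told apart.

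Of the 58 genes, 32 had at least 10 counts in at least 6 mice and were tested, and 26 were not. Among the 26, 2 genes (Ccl1 and Ccl26) had no count in any mouse and 15 had no mouse with 10 counts. Only 18 genes reached 10 counts in all 18 mice, and 9 of the 32 tested genes did so in at most 1 of the 2-mo WT mice. Those 9 passed the filter wholly or mostly through the other groups, so the counts of called genes below describe the tested genes and do not stand for all 58.

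Among the tested chemokine genes, more were called higher than lower in the HGPS aorta. Of the 32 tested genes 17 were higher and 3 were lower, against 22% of all tested genes called higher and 21.2% called lower. At the cut-offs the study used, at least 1.5-fold and an adjusted p under 0.001, 10 were higher and 0 lower, where 5.27% of all tested genes were higher and 4.23% lower. The CPM of all 6 HGPS mice lay above that of all 6 2-mo WT mice for 12 genes and below for 0, against 11.0% of all tested genes above and 10.9% below. The median log2 FC of the 32 genes was 0.94, beside 0.00 over all tested genes. These 32 include the 9 genes with 10 counts in at most 1 of the 2-mo WT mice. Neither the counts nor the median therefore stand for all members. With a filter of 50 counts, 10 members were called higher and 3 lower.

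**Figure D1:**
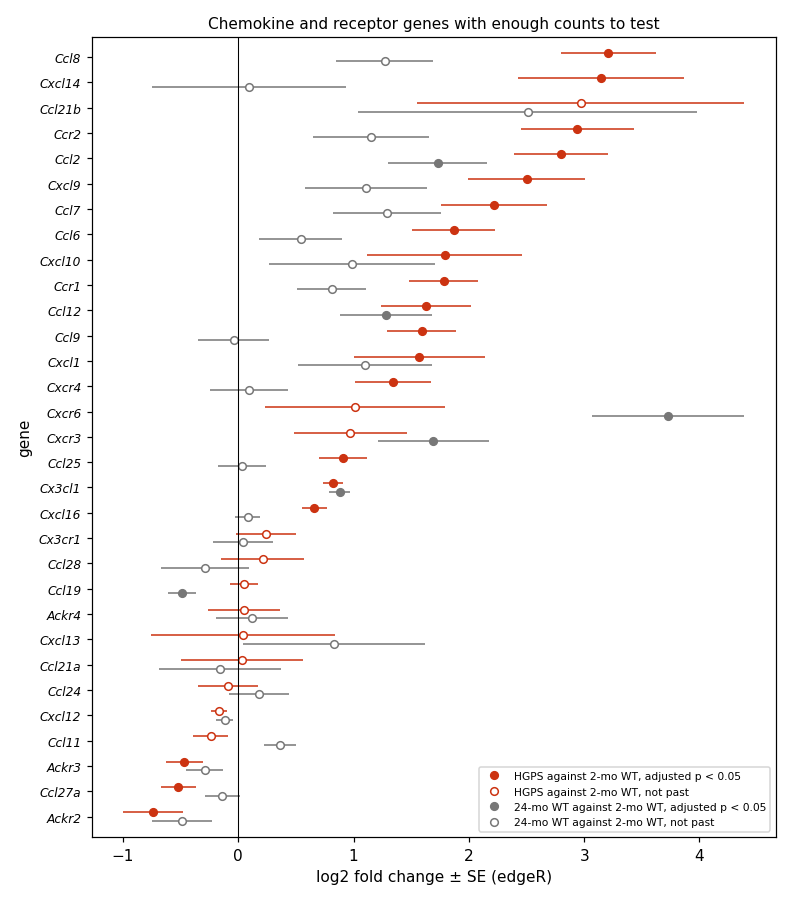
Log2 fold change ± SE of 31 tested chemokine and receptor genes in HGPS (red) and 24-mo WT (gray) against the same 2-mo WT mice, with filled circles for an adjusted p under 0.05. In HGPS the largest called change was Ccl8 at 3.21 and in 24-mo WT it was Cxcr6 at 3.73, while Cx3cl1 was called in both at 0.82 and 0.88.

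The monocyte attractants Ccl2, Ccl7 and Ccl12, which are ligands of Ccr2, and their neighbour Ccl8 were all 4 higher in HGPS. Ccl8 had 0.974, 1.42 and 2.07 CPM in 2-mo WT and 7.01, 11.4 and 29.3 in HGPS. No HGPS value fell within the 2-mo WT range, and the highest HGPS mouse, replicate 6, stood far above the other HGPS mice. The log2 FC was 3.21 ± 0.41 (edgeR adjusted p = 7.21e-06), and the 24-mo WT values of 1.31, 2.74 and 6.66 CPM ended below the lowest HGPS mouse.

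Ccl2 was at 0.21, 0.329 and 0.872 CPM in 2-mo WT and at 1.3, 2.65 and 5.23 in HGPS, groups that did not overlap. It was higher by a log2 FC of 2.80 ± 0.41 (edgeR adjusted p = 3.37e-05). Ccl7 was at 0.162, 0.341 and 0.734 CPM in 2-mo WT and 0.561, 2.08 and 3.47 in HGPS. Here the lowest HGPS mouse fell inside the 2-mo WT range, and the log2 FC was 2.22 ± 0.46 (edgeR adjusted p = 0.000721). Ccl12 was at 0.162, 0.45 and 0.948 CPM in 2-mo WT and 1.06, 1.49 and 2.41 in HGPS, with no overlap and a log2 FC of 1.63 ± 0.39 (edgeR adjusted p = 0.00256). Counts behind these 3 genes were small in 2-mo WT, with 43, 44 and 57 counts over the 6 libraries for Ccl2, Ccl7 and Ccl12.

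Ccl6 and Ccl9, CC ligands of Ccr1 made by myeloid cells in rodents, had the highest 2-mo WT levels per kilobase of exon among the ligands that were higher, at medians of 9.24 and 7.63 CPM per kilobase. Ccl6 was at 7.63, 16.6 and 23.3 CPM in 2-mo WT and 46.4, 54.3 and 99.4 in HGPS, and Ccl9 at 13.5, 23.2 and 26.8 against 48.2, 61.3 and 92.5. For both genes the lowest HGPS mouse was well clear of the highest 2-mo WT mouse. The log2 FC was 1.87 ± 0.36 for Ccl6 (edgeR adjusted p = 0.000458) and 1.59 ± 0.30 for Ccl9 (edgeR adjusted p = 0.000348). The related inflammatory CC ligands Ccl3, Ccl4 and Ccl5 were not tested and held 14, 7 and 33 counts over the 6 HGPS libraries.

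These genes lie in a cluster on chromosome 11 (GRCm38), in the order Ccl2, Ccl7, Ccl11, Ccl12, Ccl8 and Ccl1 from position 82035571 to 82305690, with Ccl5, Ccl9, Ccl6, Ccl3 and Ccl4 further along from 83525778 to 83664683. The first group did not move as a block. Ccl11, the eotaxin that draws eosinophils through Ccr3, sits between Ccl7 and Ccl12 and was at 8.4, 9.53 and 10.2 CPM in 2-mo WT and 6.54, 7.81 and 10.5 in HGPS. Its log2 FC was -0.24 ± 0.15 (edgeR adjusted p = 0.201), beside 2.22 for Ccl7 on one side and 1.63 for Ccl12 on the other.

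**Figure D2:**
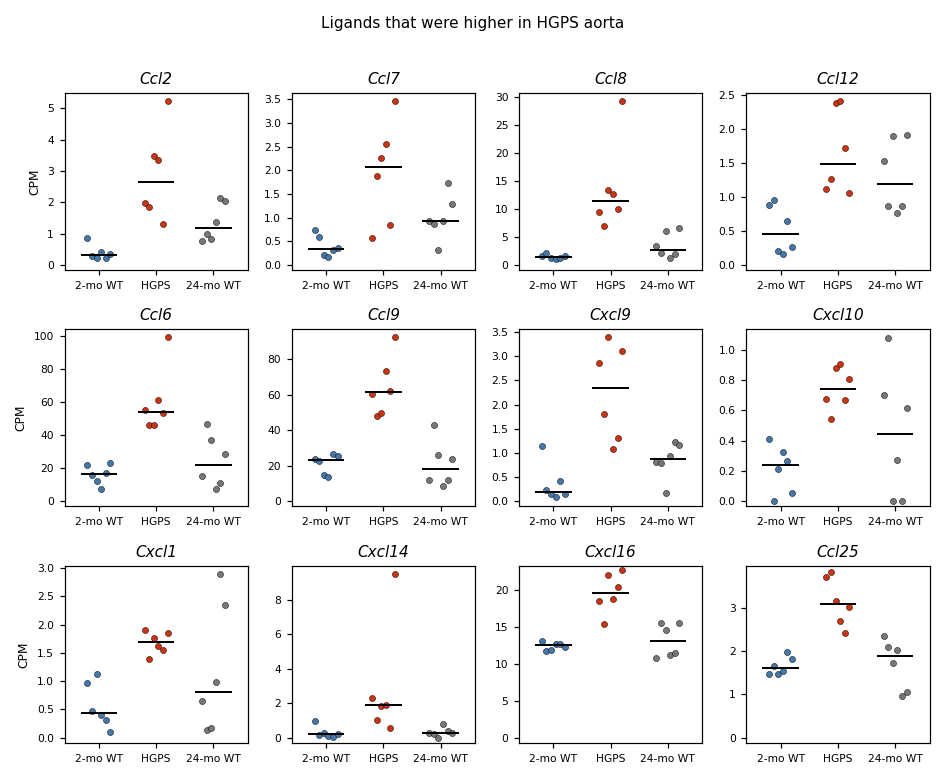
CPM of 12 ligands in each mouse of the 3 groups, with the group median as a line and a separate linear axis for each gene. The HGPS mice lie wholly above the 2-mo WT mice for Ccl2, Ccl8, Ccl12, Ccl6, Ccl9, Cxcl10, Cxcl1, Cxcl16 and Ccl25, and 1 HGPS mouse stands apart for Ccl8 (29.3 CPM) and Cxcl14 (9.51 CPM).

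Cxcl9 and Cxcl10, interferon-inducible ligands of Cxcr3 on effector T cells, were both higher in HGPS. Cxcl9 was at 0.0811, 0.196 and 1.15 CPM in 2-mo WT and 1.09, 2.33 and 3.39 in HGPS. A single 2-mo WT mouse, replicate 1 at 1.15 CPM, overlapped the lowest HGPS mouse, and without it the log2 FC was 3.33 in place of 2.50 ± 0.51 (edgeR adjusted p = 0.000625). Cxcl10 was at 0, 0.238 and 0.413 CPM in 2-mo WT, a total of 22 counts, and 0.546, 0.739 and 0.906 in HGPS. Although the groups did not overlap, its call was narrow, at a log2 FC of 1.79 ± 0.67 (edgeR adjusted p = 0.0373). Cxcl10 (169 counts in all) overlaps Art3 (28713 counts) on the other strand, so its level is uncertain. Leaving out HGPS replicate 3, 4 or 6 or 2-mo WT replicate 2, 3, 5 or 6 ended the Cxcl10 call, with edgeR adjusted p-values of 0.0517 to 0.0765.

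Cxcl1, a neutrophil attractant that acts on Cxcr2, was at 0.103, 0.44 and 1.12 CPM in 2-mo WT and 1.39, 1.69 and 1.91 in HGPS. The groups did not overlap and the log2 FC was 1.57 ± 0.57 (edgeR adjusted p = 0.0318). Leaving out HGPS replicate 1 or 2-mo WT replicate 2, 4, 5 or 6 ended the Cxcl1 call, with edgeR adjusted p-values of 0.0517 to 0.0659. The other neutrophil attractants were too low to test, with 13 counts for Cxcl2 and 1 count each for Cxcl3, Cxcl5 and Cxcl15 over the HGPS libraries. Of 7 neutrophil marker genes 3 could be tested, with log2 FC of 0.32, 0.94 and 0.64 for S100a8, S100a9 and Csf3r and edgeR adjusted p of 0.542, 0.135 and 0.0968.

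Stretches of promoter are shown for the members with a match to the NF-kB consensus, a site for the transcription factor of inflammatory signalling, among the ligands above, with the Cxcl1 relatives Cxcl2 and Cxcl3 for comparison. RefSeq promoter windows (GRCm38.p6, 250 bases before to 50 after the start) were matched by symbol for 44 of the 58 genes, and among those without one were Ccl2, Ccl4, Ccl5, Ccl7, Ccl11, Ccl24, Ccl26, Ccr7, Ccr10, Cxcl5, Cxcl16, Cxcl17 and Cxcr5. On either strand 10 of the 44 windows (22.7%) held the NF-kB consensus, beside 5.14% of the 27025 genes with a window. The interferon element (GAAA, any pair of bases, then GAAA) was in 3 of the 44 (6.82%) and in 3.99% of all genes. Each line gives the gene strand 5′ to 3′ with the match in capitals and 5 bases on each side in lower case, and a match is a description of letters and not a measured site.
Cxcl1, NF-kB, 71 bases before the start, chr5:90891169-90891188, plus strand: actccGGGAATTTCCctggc
Cxcl2, NF-kB, 97 bases before the start, chr5:90903797-90903816, plus strand: gctcaGGGAATTTCCctggt
Cxcl3, NF-kB, 73 bases before the start, chr5:90786023-90786042, plus strand: gcgggGGGAATTTCCccagc
Cxcl10, NF-kB, 159 bases before the start, chr5:92349034-92349053, minus strand: ggagaGGGAAATTCCaagtt
Cxcl10, NF-kB, 103 bases before the start, chr5:92348978-92348997, minus strand: tacagGGGACTTCCCtcggg
Cxcl10, interferon element, 213 bases before the start, chr5:92349088-92349107, minus strand: ctttgGAAAGTGAAActtac
Ccl9, NF-kB, 35 bases before the start, chr11:83578657-83578676, minus strand: actttGGAAAGCCCCaagtc

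Cxcl1, Cxcl2 and Cxcl3 held the same matched letters, yet their RNA levels were unlike, since Cxcl3 had 1 count in all HGPS libraries together and 0 in both WT groups. Among the genes with a window that were called higher in HGPS, 3 of 13 held the NF-kB consensus (Ccl9, Cxcl1 and Cxcl10), and among those called lower 2 of 3 did (Ackr2 and Ccl27a). Of the 10 tested but not called, 0 held it, and of the 18 that were not tested, 5 did (Ccl20, Ccr3, Ccr6, Cxcl2 and Cxcl3). The interferon element was in Cxcl10 and Cxcl14 among the 13 and in Ccl19 among the 10.

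The other ligands called higher were Cxcl14, Cxcl16, Cx3cl1 and Ccl25. Cxcl14, an epithelial and stromal chemokine, was at 0.0535, 0.192 and 0.964 CPM in 2-mo WT and 0.585, 1.87 and 9.51 in HGPS, with a log2 FC of 3.15 ± 0.72 (edgeR adjusted p = 0.00172). The groups overlapped and single mice set the size, since the log2 FC was 2.25 without HGPS replicate 6 (9.51 CPM) and 4.10 without 2-mo WT replicate 1 (0.964 CPM), both still called. Cxcl16, a membrane-anchored ligand of Cxcr6 that also takes up oxidized lipoprotein, was tight in 2-mo WT at 11.7, 12.5 and 13.1 CPM. It was at 15.3, 19.5 and 22.6 CPM in HGPS with no overlap, a log2 FC of 0.66 ± 0.11 (edgeR adjusted p = 9.16e-05). Ccl25, the ligand of Ccr9 known from thymus and gut, was at 1.47, 1.6 and 1.98 CPM in 2-mo WT and 2.42, 3.09 and 3.82 in HGPS. The ranges did not meet for Ccl25, with a log2 FC of 0.91 ± 0.21 (edgeR adjusted p = 0.00154). Ccl25 (775 counts in all) overlaps Elavl1 (24703 counts) on the other strand, and reads from the pair may not be fully told apart.

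Cx3cl1, the membrane-bound fractalkine of endothelium and smooth muscle, gave the smallest adjusted p of all members. It was at 10.6, 15.4 and 16.8 CPM in 2-mo WT and 21.5, 26.2 and 29.6 in HGPS. The highest 2-mo WT mouse stayed below the lowest HGPS mouse, and the log2 FC was 0.82 ± 0.09 (edgeR adjusted p = 2.37e-06).

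The ligands with the highest 2-mo WT levels per kilobase, the constitutive Ccl19 and Cxcl12, were not among the genes that were higher. Cxcl12, the stromal ligand of Cxcr4, was at 99.8, 104 and 128 CPM in 2-mo WT and 88.7, 95.2 and 103 in HGPS, with a log2 FC of -0.17 ± 0.07 (edgeR adjusted p = 0.0616). Ccl19, a ligand of the lymphocyte and dendritic cell receptor Ccr7, was at 17.7, 19.5 and 24.3 CPM against 16.7, 21.5 and 23.8 (log2 FC 0.05 ± 0.12, edgeR adjusted p = 0.762). The groups overlapped for both. Ccl27a, a ligand of the skin-homing receptor Ccr10, was the only ligand called lower, at 3.49, 5.31 and 5.83 CPM in 2-mo WT and 2.92, 3.38 and 4.2 in HGPS (log2 FC -0.52 ± 0.15, edgeR adjusted p = 0.00976). Ccl27a (1466 counts in all) overlaps Il11ra1 (80912 counts) on the other strand, so its level is uncertain.

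The remaining tested ligands were not called in HGPS. Ccl21a and Ccl21b, near-identical Ccr7 ligands whose reads can be split either way, summed to 2.68, 5.02 and 12.2 CPM in 2-mo WT and 2.41, 6.28 and 13.5 in HGPS. The log2 FC was 0.03 ± 0.53 for Ccl21a and 2.97 ± 1.42 for Ccl21b (edgeR adjusted p = 0.966 and 0.0992). Ccl24, an eotaxin, had a log2 FC of -0.09 ± 0.26, and Ccl28, a mucosal chemokine, 0.21 ± 0.36. Cxcl13, the B cell follicle ligand of Cxcr5, was at 0.0535, 0.162 and 4.38 CPM in 2-mo WT and 0.406, 0.587 and 1.91 in HGPS, a log2 FC of 0.04 ± 0.80. The 4.38 CPM belonged to 2-mo WT replicate 2 alone.

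Between genes, levels were compared as CPM per kilobase of annotated exon, counting all annotated exons of a gene together. That length can exceed the length of the transcript present, so the order of the genes depends on it. It was 8176 bases for Cxcl12 and 867 for Ccl19, whose 2-mo WT medians were 104 and 19.5 CPM. In 2-mo WT the highest median level per kilobase belonged to Ccl19 at 22.5, followed by Ackr3 at 19.8, Cxcl12 at 12.8 and Ccl6 at 9.24. In HGPS the order changed to Ccl6 at 30.3, Ccl19 at 24.7, Ccl8 at 22.2 and Ccl9 at 20.1. Ccl8 had stood at 2.78 per kilobase in 2-mo WT. In 24-mo WT the leading values were 16.1 for Ackr3 and 14.9 for Ccl19.

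Among the signalling receptors Ccr1, Ccr2 and Cxcr4 were higher in HGPS. Ccr2, the receptor of inflammatory monocytes, was at 0.649, 2.33 and 5.14 CPM in 2-mo WT and 8.61, 18.8 and 43.1 in HGPS. The ranges were apart, with replicate 6 the highest, and the log2 FC was 2.94 ± 0.49 (edgeR adjusted p = 0.000106). Ccr1, a receptor of monocytes, macrophages and neutrophils, was at 0.838, 1.4 and 3.35 CPM in 2-mo WT and 4.41, 5.95 and 8.56 in HGPS, also without overlap. Its log2 FC was 1.78 ± 0.30 (edgeR adjusted p = 0.00011).

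Cxcr4, the Cxcl12 receptor of many leukocytes and progenitors, was at 0.948, 2.26 and 3.51 CPM in 2-mo WT and 2.78, 5.83 and 8.45 in HGPS, with a log2 FC of 1.34 ± 0.33 (edgeR adjusted p = 0.00269). A single HGPS mouse, at 2.78 CPM, fell among the 2-mo WT mice.

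Cx3cr1, Cxcr3 and Cxcr6, the tested receptors that were not called, pair with ligands that were. Cx3cr1, the fractalkine receptor of monocytes and macrophages, was at 3.36, 8.24 and 11.1 CPM in 2-mo WT and 5.56, 8.07 and 16.9 in HGPS (log2 FC 0.24 ± 0.26, edgeR adjusted p = 0.492), beside 0.82 for Cx3cl1. Cx3cr1 (2899 counts in all) overlaps Xirp1 (46655 counts) on the same strand and other genes on both, so its level is uncertain too. Cxcr3 had a log2 FC of 0.97 ± 0.49 (edgeR adjusted p = 0.12), beside 2.50 for Cxcl9. Cxcr6 was at 0, 0.0664 and 0.23 CPM in 2-mo WT and 0, 0.168 and 0.464 in HGPS (log2 FC 1.01 ± 0.78, edgeR adjusted p = 0.312), beside 0.66 for Cxcl16. For Ccl25 the receptor Ccr9 was not tested and held 16 counts over the HGPS libraries.

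**Figure D3:**
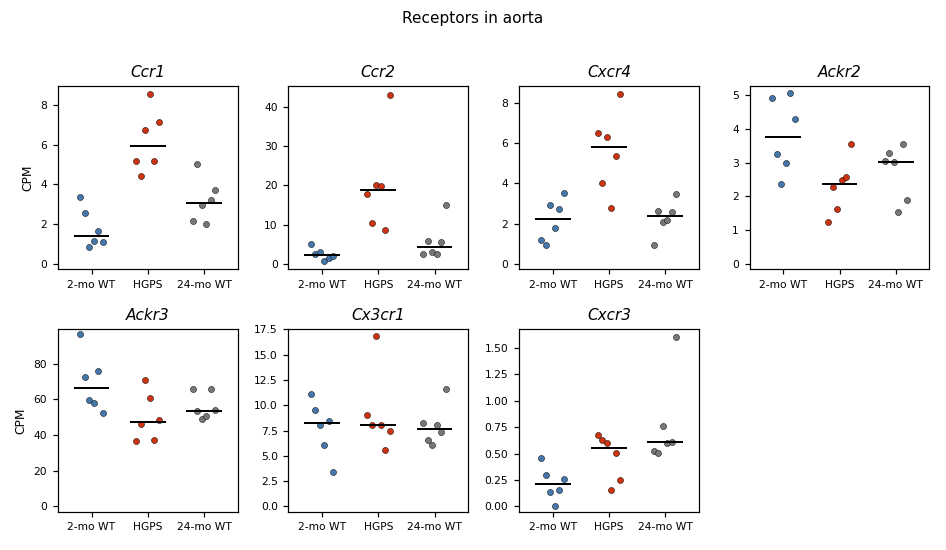
CPM of 7 receptor genes in each mouse of the 3 groups, with the group median as a line and a separate linear axis for each gene. Ccr1 and Ccr2 separate HGPS from 2-mo WT (lowest HGPS 4.41 and 8.61 CPM, highest 2-mo WT 3.35 and 5.14), while Cx3cr1 has medians of 8.24, 8.07 and 7.7 CPM in 2-mo WT, HGPS and 24-mo WT.

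Of the atypical receptors, Ackr2 and Ackr3 were lower in HGPS. Ackr3, a scavenger of Cxcl12 on endothelium and mesenchymal cells, was at 52.5, 66.3 and 96.7 CPM in 2-mo WT and 36.8, 47.3 and 70.8 in HGPS. Ackr2, which degrades inflammatory CC chemokines, was at 2.38, 3.77 and 5.08 CPM against 1.23, 2.38 and 3.57. Both pairs of ranges overlapped, with a log2 FC of -0.47 ± 0.16 for Ackr3 (edgeR adjusted p = 0.024) and -0.74 ± 0.26 for Ackr2 (edgeR adjusted p = 0.0261). The Ackr3 call ended without HGPS replicate 1 or 5 or 2-mo WT replicate 1 (edgeR adjusted p of 0.0582, 0.06 and 0.073). The Ackr2 call ended without HGPS replicate 1 or 3 or 2-mo WT replicate 1 or 5 (edgeR adjusted p of 0.0582, 0.0621, 0.0598 and 0.0617). Ackr4, which removes Ccl19, Ccl21 and Ccl25, had a log2 FC of 0.05 ± 0.31, and Ackr1, which carries chemokines across venules, was not tested at medians of 0.338 CPM in 2-mo WT and 0.419 in HGPS.

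Genes of other cell types also differed between HGPS and 2-mo WT, where 22% of all tested genes were called higher and 21.2% lower. Macrophage markers summed to 632, 851 and 901 CPM in 2-mo WT and 1080, 1446 and 1697 in HGPS, with 11 of 12 higher, 0 lower, a log2 FC range of -0.02 to 1.13 and no marker at 0 in all mice. Brown fat markers summed to 108, 258 and 591 CPM against 455, 837 and 1665 (7 of 7 higher), and white fat markers to 234, 512 and 1013 against 810, 1969 and 2972 (5 of 6 higher). Smooth muscle markers summed to 29473, 34797 and 38006 CPM against 19647, 21919 and 27404 (5 of 7 lower), and these markers of the labelled tissue were abundant in every mouse. Fibroblast markers summed to 8502, 9394 and 11058 CPM against 5848, 7300 and 9944 (3 of 7 lower, 0 higher). T cell markers summed to 0.826, 1.24 and 3.96 CPM against 1.85, 2.92 and 4.78, with 1 of 3 tested higher. Resident macrophage markers summed to 500, 547 and 594 CPM against 555, 603 and 766 (2 of 5 higher, 1 lower). Endothelium markers summed to 689, 1203 and 1528 CPM against 1016, 1138 and 1379 (1 of 8 higher, 0 lower). Dendritic cell markers summed to 18.8, 20.7 and 25.2 CPM against 18.5, 20.9 and 26.6, with 2 of 3 tested higher and 1 lower (Zbtb46). By list, the largest marker log2 FC was 1.13 for macrophage (Cd163), 1.25 for endothelium (Kdr) and 1.93 for T cell (Cd2). It was 1.97 for white fat (Fabp4), 2.76 for dendritic cell (Itgae) and 3.25 for brown fat (Elovl3). No separate list of monocyte markers was made. The part of macrophage, dendritic cell, T cell, endothelium, fat, fibroblast and smooth muscle content in the chemokine differences was not tested.

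The next comparison asked which of the genes differ with natural ageing. In 24-mo WT against 2-mo WT 5 of the 32 tested genes were higher and 1 was lower, against 6.29% of all tested genes called higher and 5.38% called lower. At the study's cut-offs 2 were higher (Cx3cl1 and Cxcr6) and 0 lower, where 1.28% of all tested genes were higher and 0.717% lower. The 24-mo WT mice lay wholly above the 2-mo WT mice for Cx3cl1, Cxcr6 and Cxcr3 and wholly below for none, against 3.20% of all tested genes above and 3.08% below. This comparison and the one above share the 2-mo WT mice.

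Cx3cl1 was at 25.4, 26.9 and 29 CPM in 24-mo WT, all above the highest 2-mo WT mouse at 16.8, with a log2 FC of 0.88 ± 0.09 (edgeR adjusted p = 3.27e-06). HGPS and 24-mo WT differed by a log2 FC of -0.06 ± 0.09 (edgeR adjusted p = 0.611), so fractalkine RNA stood at overlapping levels in the vessels of young HGPS mice and of old wild type mice. Its receptor Cx3cr1 was at 6.04, 7.7 and 11.6 CPM in 24-mo WT and had a log2 FC of 0.04 ± 0.26 against 2-mo WT (edgeR adjusted p = 0.953).

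Cxcr6, a receptor of tissue-resident and effector T cells, was at 0.509, 1.14 and 2.16 CPM in 24-mo WT, where each mouse had at least 10 counts. The 2-mo WT mice ended at 0.23 CPM and the HGPS mice at 0.464, so the 24-mo WT mice stood clear of both. The log2 FC was 3.73 ± 0.66 against 2-mo WT (edgeR adjusted p = 0.000731), and 4.46 without 2-mo WT replicate 1. HGPS was lower than 24-mo WT by a log2 FC of -2.72 ± 0.57 (edgeR adjusted p = 0.000634). Because 2-mo WT held 9 counts in all, the size of the Cxcr6 difference is poorly fixed. Cxcr6 (157 counts in all) overlaps Fyco1 (38575 counts) on the other strand. Its ligand Cxcl16 was at 10.7, 13 and 15.5 CPM in 24-mo WT, with a log2 FC of 0.08 ± 0.11 against 2-mo WT.

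Cxcr3 was at 0, 0.209 and 0.459 CPM in 2-mo WT and 0.502, 0.605 and 1.6 in 24-mo WT, without overlap, with a log2 FC of 1.69 ± 0.48 (edgeR adjusted p = 0.0268). The highest mouse was 24-mo WT replicate 6, which also had a summed T cell marker level of 17.7 CPM where the other 24-mo WT mice had 1.78 to 3.22. The Cxcr3 call ended without that mouse (edgeR adjusted p = 0.0726) and without 2-mo WT replicate 3 or 5 (edgeR adjusted p of 0.0568 and 0.059). The same mouse was the highest for Cxcr6 at 2.16 CPM, and the Cxcr6 call held without it.

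Ccl2 and Ccl12 were higher at 24 months. Ccl2 was at 0.762, 1.18 and 2.14 CPM in 24-mo WT, a log2 FC of 1.73 ± 0.43 (edgeR adjusted p = 0.011), and a single 2-mo WT mouse at 0.872 CPM overlapped this range. Ccl12 was at 0.763, 1.19 and 1.91 CPM, a log2 FC of 1.28 ± 0.40 (edgeR adjusted p = 0.0439). The Ccl12 call ended without 2-mo WT replicate 3, 4, 5 or 6 or 24-mo WT replicate 1, 3 or 6, with edgeR adjusted p-values of 0.0618 to 0.0923. Their cluster neighbours Ccl7 and Ccl8 had log2 FC of 1.29 ± 0.47 and 1.27 ± 0.42 and were not called (edgeR adjusted p = 0.0862 and 0.0537).

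Ccl19 was the only gene lower at 24 months. It was at 12.1, 13 and 18.4 CPM in 24-mo WT against 17.7, 19.5 and 24.3 in 2-mo WT, ranges that touched, with a log2 FC of -0.49 ± 0.12 (edgeR adjusted p = 0.0114). Its receptor Ccr7 was not tested, at medians of 0.276 CPM in 2-mo WT and 0.314 in 24-mo WT. Among the marker lists, fibroblast markers summed to 5531, 6270 and 7982 CPM at 24 months against 8502, 9394 and 11058 in 2-mo WT (4 of 7 lower). Mast cell markers summed to 27, 33.2 and 58 CPM against 10.1, 18.4 and 37.9 (2 of 5 higher), and dendritic cell markers to 25.1, 28.4 and 33 against 18.8, 20.7 and 25.2 (2 of 3 tested higher). Macrophage markers summed to 601, 781 and 1200 CPM against 632, 851 and 901 (1 of 12 higher). Over all tested genes 6.29% were called higher and 5.38% lower in this comparison. The part of these cell types in the 24-mo WT differences was not tested.

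**Figure D4:**
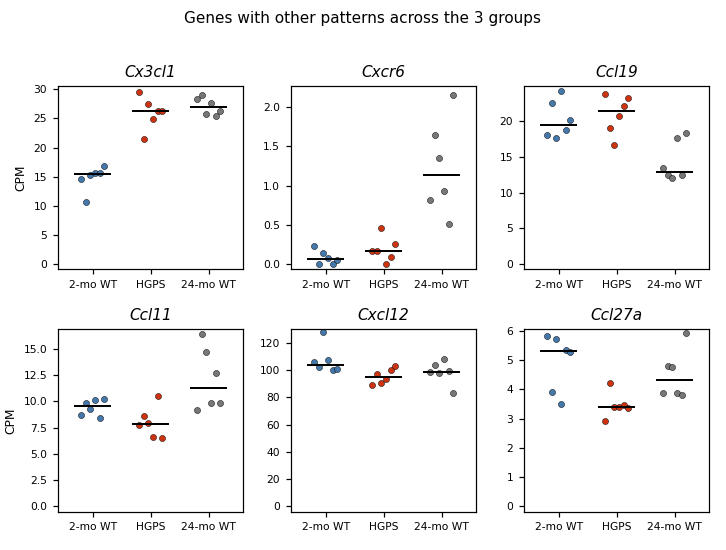
CPM of 6 genes in each mouse, with the group median as a line and a separate linear axis from 0 for each gene. Cx3cl1 in HGPS and 24-mo WT overlaps (medians 26.2 and 26.9 CPM) above 2-mo WT (15.4), Cxcr6 in 24-mo WT (median 1.14) lies above both other groups, and Ccl19 is lowest in 24-mo WT (median 13).

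Set directly against each other, the HGPS and 24-mo WT aortas differed in 15 of the 32 genes, 12 higher in HGPS and 3 lower, against 23.8% and 23.6% of all tested genes. At the study's cut-offs Ccl8 and Ccl9 were higher and Cxcr6 was lower, where 6.02% of all tested genes were higher and 6.11% lower. Ccl8, Ccl9 and Ccl25 did not overlap in the higher direction and Cxcr6 in the lower one, against 10.9% and 11.3% of all tested genes. Ccl9 was at 8.5, 17.9 and 42.8 CPM in 24-mo WT, below the lowest HGPS mouse at 48.2, with a log2 FC of 1.64 ± 0.30 (edgeR adjusted p = 0.000211), and Ccl8 had a log2 FC of 1.93 ± 0.37 (edgeR adjusted p = 0.000302). The other genes higher in HGPS were Ccl2, Ccl6, Ccl19, Ccl25, Cxcl9, Cxcl14, Cxcl16, Ccr1, Ccr2 and Cxcr4, with log2 FC from 0.54 for Ccl19 to 3.06 for Cxcl14. Ccl6 was at 7.14, 21.9 and 46.8 CPM in 24-mo WT and touched the lowest HGPS mice. Ccr2 was at 2.62, 4.31 and 15 CPM there, and only its highest mouse, replicate 6, fell within the HGPS range. The Cxcl14 value was 2.16 without HGPS replicate 6, and the Ccl2 call (log2 FC 1.07 ± 0.36, edgeR adjusted p = 0.0208) ended without that mouse (edgeR adjusted p = 0.0716).

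The genes lower in HGPS than in 24-mo WT besides Cxcr6 were Ccl11 and Ccl27a. Ccl11 was at 9.2, 11.3 and 16.4 CPM in 24-mo WT against 6.54, 7.81 and 10.5 in HGPS, overlapping ranges with a log2 FC of -0.60 ± 0.14 (edgeR adjusted p = 0.00207), while neither group was called against 2-mo WT (edgeR adjusted p = 0.201 and 0.114). Ccl27a had a log2 FC of -0.38 ± 0.15 (edgeR adjusted p = 0.0461). The Ccl27a call ended without HGPS replicate 1, 3, 4, 5 or 6 or 24-mo WT replicate 2, 3 or 6, with edgeR adjusted p-values of 0.0694 to 0.12.

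Among the genes too low for the main test, Xcr1 stood out, and it was chosen for description after its values were seen. Xcr1, the receptor of cross-presenting dendritic cells, had 9 to 20 counts in every HGPS mouse, 0 or 1 in every 2-mo WT mouse and 0 to 4 in every 24-mo WT mouse. All HGPS mice were above all other mice. In the fit without a count filter the HGPS level exceeded that of 2-mo WT (edgeR adjusted p = 5.62e-05) and of 24-mo WT (edgeR adjusted p = 0.00142). Its ligand Xcl1 had 3 counts over the HGPS libraries. Of 5 dendritic cell markers, Itgae and Cd209a had higher levels in HGPS (log2 FC of 2.76 and 1.68 against 2-mo WT) and Zbtb46 a lower one (-0.30), while Flt3 and Clec9a were not tested at medians of 0.798 and 0.487 CPM in HGPS beside 0.0564 and 0.0608 in 2-mo WT.

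Ccl17 and Ccl22, ligands of Ccr4 made by dendritic cells, were low but present in every HGPS mouse, with 48 and 39 counts over the 6 libraries beside 2 and 4 in 2-mo WT. Without the count filter both were higher in HGPS (edgeR adjusted p = 0.00537 and 0.0154), whereas Ccr4 itself had 2 counts in HGPS. In 24-mo WT, Ccl3 had 32 counts beside 3 in 2-mo WT and Cxcl2 had 79 beside 7, with edgeR adjusted p of 0.0382 and 0.016 in the same fit. Most of these came from single mice, since 24-mo WT replicate 5 held 18 of the Ccl3 counts and 53 of the Cxcl2 counts. Replicate 6 of the same group held 49 of the 68 Ccl5 counts. That fit tested 28882 genes and 56 of the members, called 21.0% of all genes in HGPS against 2-mo WT, and called 18 members higher and 3 lower.

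**Figure D5:**
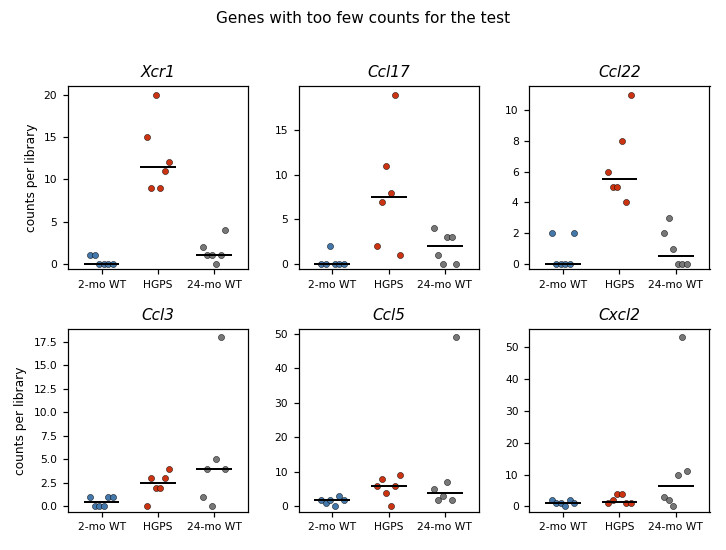
Counts per library of 6 genes below the count filter, 1 point per mouse with the group median as a line and a separate linear axis from 0 for each gene. Xcr1 has 9 to 20 counts in the HGPS mice and at most 4 elsewhere, while the high 24-mo WT values of Ccl5 (49) and Cxcl2 (53) are single mice.

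Genes that carry or restrain the chemokine signal inside the cell were taken as a list of 46, of which 45 were tested. In HGPS against 2-mo WT 22 were higher and 3 lower, beside 22% and 21.2% of all tested genes, with a median log2 FC of 0.28. The higher ones included genes known mainly from leukocytes, with log2 FC of 1.20 ± 0.19 for Dock2 (a Rac activator of migrating lymphocytes and monocytes), 1.58 ± 0.33 for Pik3r5 (a regulatory subunit of PI3K gamma), 1.14 ± 0.19 for Vav1 and 1.01 ± 0.16 for Lyn. Of more widely used members, Gnai2 was not called at 0.11 ± 0.06, while Gnb4 and Plcb3 were lower at -0.57 ± 0.06 and -0.41 ± 0.08. In 24-mo WT 6 were higher and 0 lower, beside 6.29% and 5.38% of all tested genes, among them Rgs1, a brake on Gi signalling in lymphocytes, which had medians of 0.775 CPM in 2-mo WT, 0.684 in HGPS and 4.21 in 24-mo WT. Rgs1 had a log2 FC of 2.59 ± 0.48 at 24 months (edgeR adjusted p = 0.0012) and -0.14 ± 0.52 in HGPS (edgeR adjusted p = 0.854). HGPS against 24-mo WT gave 12 higher and 6 lower, beside 23.8% and 23.6% of all tested genes.

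A second list, called the inducer list below, held 30 cytokines, transcription factors and NF-kB regulators tied to the control of chemokine genes. Of these 20 were tested, and not all are inducers, since Nfkbia and Il10 restrain. In HGPS against 2-mo WT 6 were higher and 6 lower, beside 22% and 21.2% of all tested genes, with a median log2 FC of 0.10. The interferon regulatory factor genes were mixed, with Irf8, Irf7 and Irf5 higher (log2 FC of 1.53 ± 0.23, 1.42 ± 0.30 and 1.11 ± 0.17), Irf3 lower (-0.21 ± 0.07) and Irf1 not called (-0.24 ± 0.12, edgeR adjusted p = 0.127). Cebpb was higher at 1.07 ± 0.21. The NF-kB subunit genes split, with Nfkb2 higher (0.55 ± 0.11) and Rela and Nfkb1 lower (-0.28 ± 0.08 and -0.23 ± 0.06), and Jun was lower by -1.29 ± 0.28 on the log2 scale. The cytokines Tnf, Il6 and Il1a were not tested, at HGPS medians of 0.279, 0.267 and 0 CPM, and Il13 had no count in any mouse. Of the cytokines tested, Tgfb1 was higher in HGPS (log2 FC 0.73 ± 0.18, edgeR adjusted p = 0.00319). Il1b and Csf1 were not called there (1.38 ± 0.87 and -0.04 ± 0.12, edgeR adjusted p = 0.217 and 0.813). At 24 months Il1b was called higher (2.85 ± 0.83, edgeR adjusted p = 0.03), while Tgfb1 and Csf1 were not called. At 24 months 3 were higher and 1 was lower, beside 6.29% and 5.38% of all tested genes, and HGPS against 24-mo WT gave 6 higher and 6 lower, beside 23.8% and 23.6%.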

How the data were processed

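The authors deposited 1 table of whole-number estimated counts per gene. Their methods name salmon on a GRCm38 transcriptome with reads of a stranded, ribosome-depleted library, and the submitters' notes also name Bowtie. Whether strand was used in counting is not given in the sources used here, which bears on overlapping genes. Pooling of replicates was not applied, and no normalization preceded the table. Genes were named through GENCODE (54107 of 54281 identifiers matched). Counts were scaled by TMM, and the 15210 genes that reached 10 counts in 6 mice or more entered a test by edgeR 4.0.16 in R 4.3.3, in 1 quasi-likelihood fit of all 18 mice with 15 residual degrees of freedom. The test was checked on simulated data. DESeq2 1.42.0, RLE and upper-quartile scaling, other count filters, fits of 2 groups, a replicate block, leaving out each mouse and the study's cut-offs (1.5-fold, adjusted p under 0.001) were the alternatives. Replicate numbers come from the labels and mark different animals, and same-numbered mice deviated together with correlations of only -0.162 to 0.172, so the numbers were not taken as pairs. Libraries were distinct (chi-square per degree of freedom of 7.77 or more in each pair within a group). The members and lists were chosen with earlier results of these data known. Called members at least 1.5-fold apart in any comparison are given with group ranges, other called members with their fold change, tested and not called members with their level or fold change, and untested members by counts. Promoter windows were searched with Python 3.11.15. A tested member counted in the totals is not reported here by name.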

Additional observations from a re-analysis of the deposited data

Results flagged for a closer look

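In each group of 6 mice, a mouse was singled out when its gap to the nearest other mouse as a share of the range exceeded Dixon's 95% critical value, over 129 combinations of gene and group. This marked 21, and chance marks about 1 in 20. HGPS replicate 6 was the highest HGPS mouse for Ccl8 at 29.3 CPM, Ccr2 at 43.1, Ccl6 at 99.4, Cxcl14 at 9.51, Ccl21a at 13.5 and Cxcr2 at 0.956. HGPS replicate 3 was highest for Cx3cr1 at 16.9 CPM. In 24-mo WT, replicate 6 was highest for Ccr2 at 15 CPM, Ccl5 at 3.02, Cxcr3 at 1.6 and Cxcr5 at 0.616, and replicate 5 for Cxcl2 at 2.7 and Ccl3 at 0.917. In 2-mo WT, replicate 1 was highest for Ccl2 at 0.872 CPM, Cxcl14 at 0.964 and Cxcl9 at 1.15. Replicate 2 was highest for Cxcl13 at 4.38 CPM and lowest for Cx3cl1 at 10.6. Replicate 3 was highest for Cxcl12 at 128 CPM and Ccl21b at 0.978, and replicate 5 for Ccr9 at 0.749. Replicate 5 of 2-mo WT also had the highest thymus marker sum of all mice, 5.67 CPM.

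The effects of HGPS and of 24 months, each taken against 2-mo WT, differed for 15 of 32 genes. This is the direct edgeR contrast of HGPS with 24-mo WT already given above, adjusted over all tested genes. In it 23.8% of all tested genes were higher in HGPS and 23.6% lower, so the count of members was near that share. The difference in log2 FC was positive for Cxcl14 at 3.06, Ccl8 at 1.93, Ccr2 at 1.79, Ccl9 at 1.64, Cxcl9 at 1.40, Ccl6 at 1.32, Cxcr4 at 1.26, Ccl2 at 1.07, Ccr1 at 0.97, Ccl25 at 0.88, Cxcl16 at 0.58 and Ccl19 at 0.54. It was negative for Cxcr6 at -2.72, Ccl11 at -0.60 and Ccl27a at -0.38.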

How the results depend on the processing

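Among the 58 genes, those called numbered 20 in HGPS against 2-mo WT, 6 in 24-mo WT against 2-mo WT and 15 in HGPS against 24-mo WT. With a filter of 50 counts, which tests fewer genes, the first count was 13 and the second 2. With the study's cut-offs the 3 counts were 10, 2 and 3, those of the signal transduction list were 6, 0 and 3 (25, 6 and 18 in the main fit), and those of the inducer list 4, 0 and 0 (12, 4 and 12). With a fit of the 2 groups only, the inducer list count at 24 months was 2. DESeq2 called 20, 9 and 15 of the members. Leaving out each mouse in turn gave 16 to 20, 4 to 8 and 13 to 16 called members, 21 to 25, 5 to 9 and 15 to 20 genes of the signal list, 11 to 13, 2 to 5 and 11 to 14 of the inducer list, and 12 to 14, 3 to 4 and 4 to 7 members without overlap between groups. All 41 single calls kept their direction in each setting run, and 9 were lost on leaving out at least 1 mouse. DESeq2, RLE and upper-quartile scaling kept all 41, no count filter ended 5 and fits of 2 groups ended 2. A replicate block, where same numbers are not known to pair mice, gave 16, 6 and 14 called members and ended 6 calls (among them Ackr3, Cxcl1 and Cxcl10 in HGPS, Ccl12 at 24 months and Ccl27a in HGPS against 24-mo WT). Few counts leave the size of the differences in Cxcl10, Cxcl14 and Cxcr6 poorly fixed.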

Other observations

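Chemokine-like genes and partners outside the naming rule were also examined. Ccrl2, a receptor-like protein that presents chemerin, was at medians of 23 CPM in 2-mo WT, 10.5 in HGPS and 16.5 in 24-mo WT, with a log2 FC in HGPS of -0.99 ± 0.14 (edgeR adjusted p = 3.04e-05). Rarres2, which encodes chemerin, was lower in HGPS as well (log2 FC -0.37, edgeR adjusted p = 0.000711), whereas its signalling receptor Cmklr1 was higher (log2 FC 0.56, edgeR adjusted p = 0.00332). Gpr35, a Gi-coupled receptor of leukocytes and gut, was at medians of 0.158 CPM in 2-mo WT and 1.31 in HGPS (log2 FC 2.71, edgeR adjusted p = 0.00229). Cklf was higher in HGPS (log2 FC 0.72, edgeR adjusted p = 0.00734). The platelet chemokine genes Pf4 and Ppbp had log2 FC of 0.34 and 0.59 in HGPS and were not called (edgeR adjusted p = 0.118 and 0.495), and neither were Mif and Dpp4 (log2 FC 0.04 and 0.50). In 24-mo WT against 2-mo WT the edgeR adjusted p of these 9 genes ran from 0.0641 for Ccrl2 to 0.943 for Pf4.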
